A study of Caenorhabditis elegans with 2 samples.

Results

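The 8 genes unc-44, ssl-1, dip-2, set-16, imb-3, lpd-3, soc-2 and ani-1 are described because each held several strong ALR-1-GFP summits inside its own boundaries. They were selected on that count of strong summits. A summit is the single base at which the authors' peak caller placed a region's peak, and strong means rank 1 to 1000 of the 30000 regions in a list, ordered by the authors' signal value. All 8 genes held at least 3 strong summits in the list of at least 1 of the replicates, out of 19973 nuclear protein-coding genes. Since the genes were chosen by that count, it is described here and not tested. Of the other protein-coding genes, 1 reached 3 strong summits in a replicate list, alr-1, the gene carried by the tagged transgene.

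The series is a chromatin immunoprecipitation and sequencing (ChIP-seq) experiment in whole Caenorhabditis elegans first-stage (L1) larvae of mixed sex, aged 6 hours and starved following bleaching. It has 1 group of 2 biological replicates, and both came from strain OP362, which has the genotype unc-119(tm4063) III; wgIs362. The wgIs362 transgene supplies ALR-1 with a GFP-FLAG tag at its C terminus, the immunoprecipitation used an antibody to GFP, and chromatin was sheared by sonication. Each replicate has a list of 30000 regions, the pooled replicates have another, and 182 pooled regions passed the authors' irreproducible discovery rate (IDR) threshold. No untagged or other-stage group is compared, the control data were not analysed here, and read depth is unknown from such lists.

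ALR-1 is an aristaless-type transcription factor with a homeodomain. In the worm it is known from sensory and motor neurons, among them the touch receptor neurons. Homeodomain factors bind short AT-rich DNA, and TAATTA is a typical core. In whole larvae, few cells with strong binding and many cells with weak binding cannot be told apart.

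The DNA under the highest summits of these genes was mostly protein-coding and not AT-rich. The stretches below are 151 bases centred on a pooled-list summit, from the ce11 build (WBcel235, RefSeq sequence), written 5′ to 3′ on the strand of the gene. The first pair shows the highest summits of unc-44 (chrIV:5979943-5980093, plus strand, rank 14) and ssl-1 (chrIII:12728246-12728396, plus strand, rank 25). The second pair shows runs of CAG triplets, at ssl-1 (chrIII:12740081-12740231, plus strand, rank 149) and at set-16 (chrIII:13644517-13644667, plus strand, rank 52). Capitals mark coding bases, and all 151 bases of each of these 4 stretches were coding in at least 1 transcript.
unc-44 rank 14: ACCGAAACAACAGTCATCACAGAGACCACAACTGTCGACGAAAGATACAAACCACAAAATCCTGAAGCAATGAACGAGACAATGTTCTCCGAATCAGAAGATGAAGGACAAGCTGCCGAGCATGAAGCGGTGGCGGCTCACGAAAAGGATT
ssl-1 rank 25: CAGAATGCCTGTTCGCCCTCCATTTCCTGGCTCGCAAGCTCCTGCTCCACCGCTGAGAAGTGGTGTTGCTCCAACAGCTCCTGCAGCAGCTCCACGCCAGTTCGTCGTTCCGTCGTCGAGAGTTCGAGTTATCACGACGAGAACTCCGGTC
ssl-1 rank 149: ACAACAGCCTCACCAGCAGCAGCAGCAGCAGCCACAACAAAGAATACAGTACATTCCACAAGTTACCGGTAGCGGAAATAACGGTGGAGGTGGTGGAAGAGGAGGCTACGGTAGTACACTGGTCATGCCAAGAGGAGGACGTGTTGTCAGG
set-16 rank 52: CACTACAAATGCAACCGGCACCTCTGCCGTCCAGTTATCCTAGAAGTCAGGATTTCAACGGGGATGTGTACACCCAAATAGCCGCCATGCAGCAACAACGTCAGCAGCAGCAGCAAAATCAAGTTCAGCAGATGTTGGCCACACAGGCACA

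The strong summits of soc-2 were of another kind, and 2 of them lay in one long intron. They are shown from chrIV:5141580-5141730 (rank 346) and chrIV:5143143-5143293 (rank 354), both on the minus strand. Capitals here mark TAATTA, which reads the same on both strands. The whole region held TAATTA at both places, but at rank 346 it lay outside the 151 bases shown.
soc-2 rank 346: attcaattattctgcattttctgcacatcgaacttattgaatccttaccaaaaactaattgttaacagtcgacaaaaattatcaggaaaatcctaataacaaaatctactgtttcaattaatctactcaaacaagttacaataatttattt
soc-2 rank 354: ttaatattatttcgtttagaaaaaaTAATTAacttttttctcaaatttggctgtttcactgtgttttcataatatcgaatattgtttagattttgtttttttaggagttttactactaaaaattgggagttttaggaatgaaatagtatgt

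**Figure D1:**
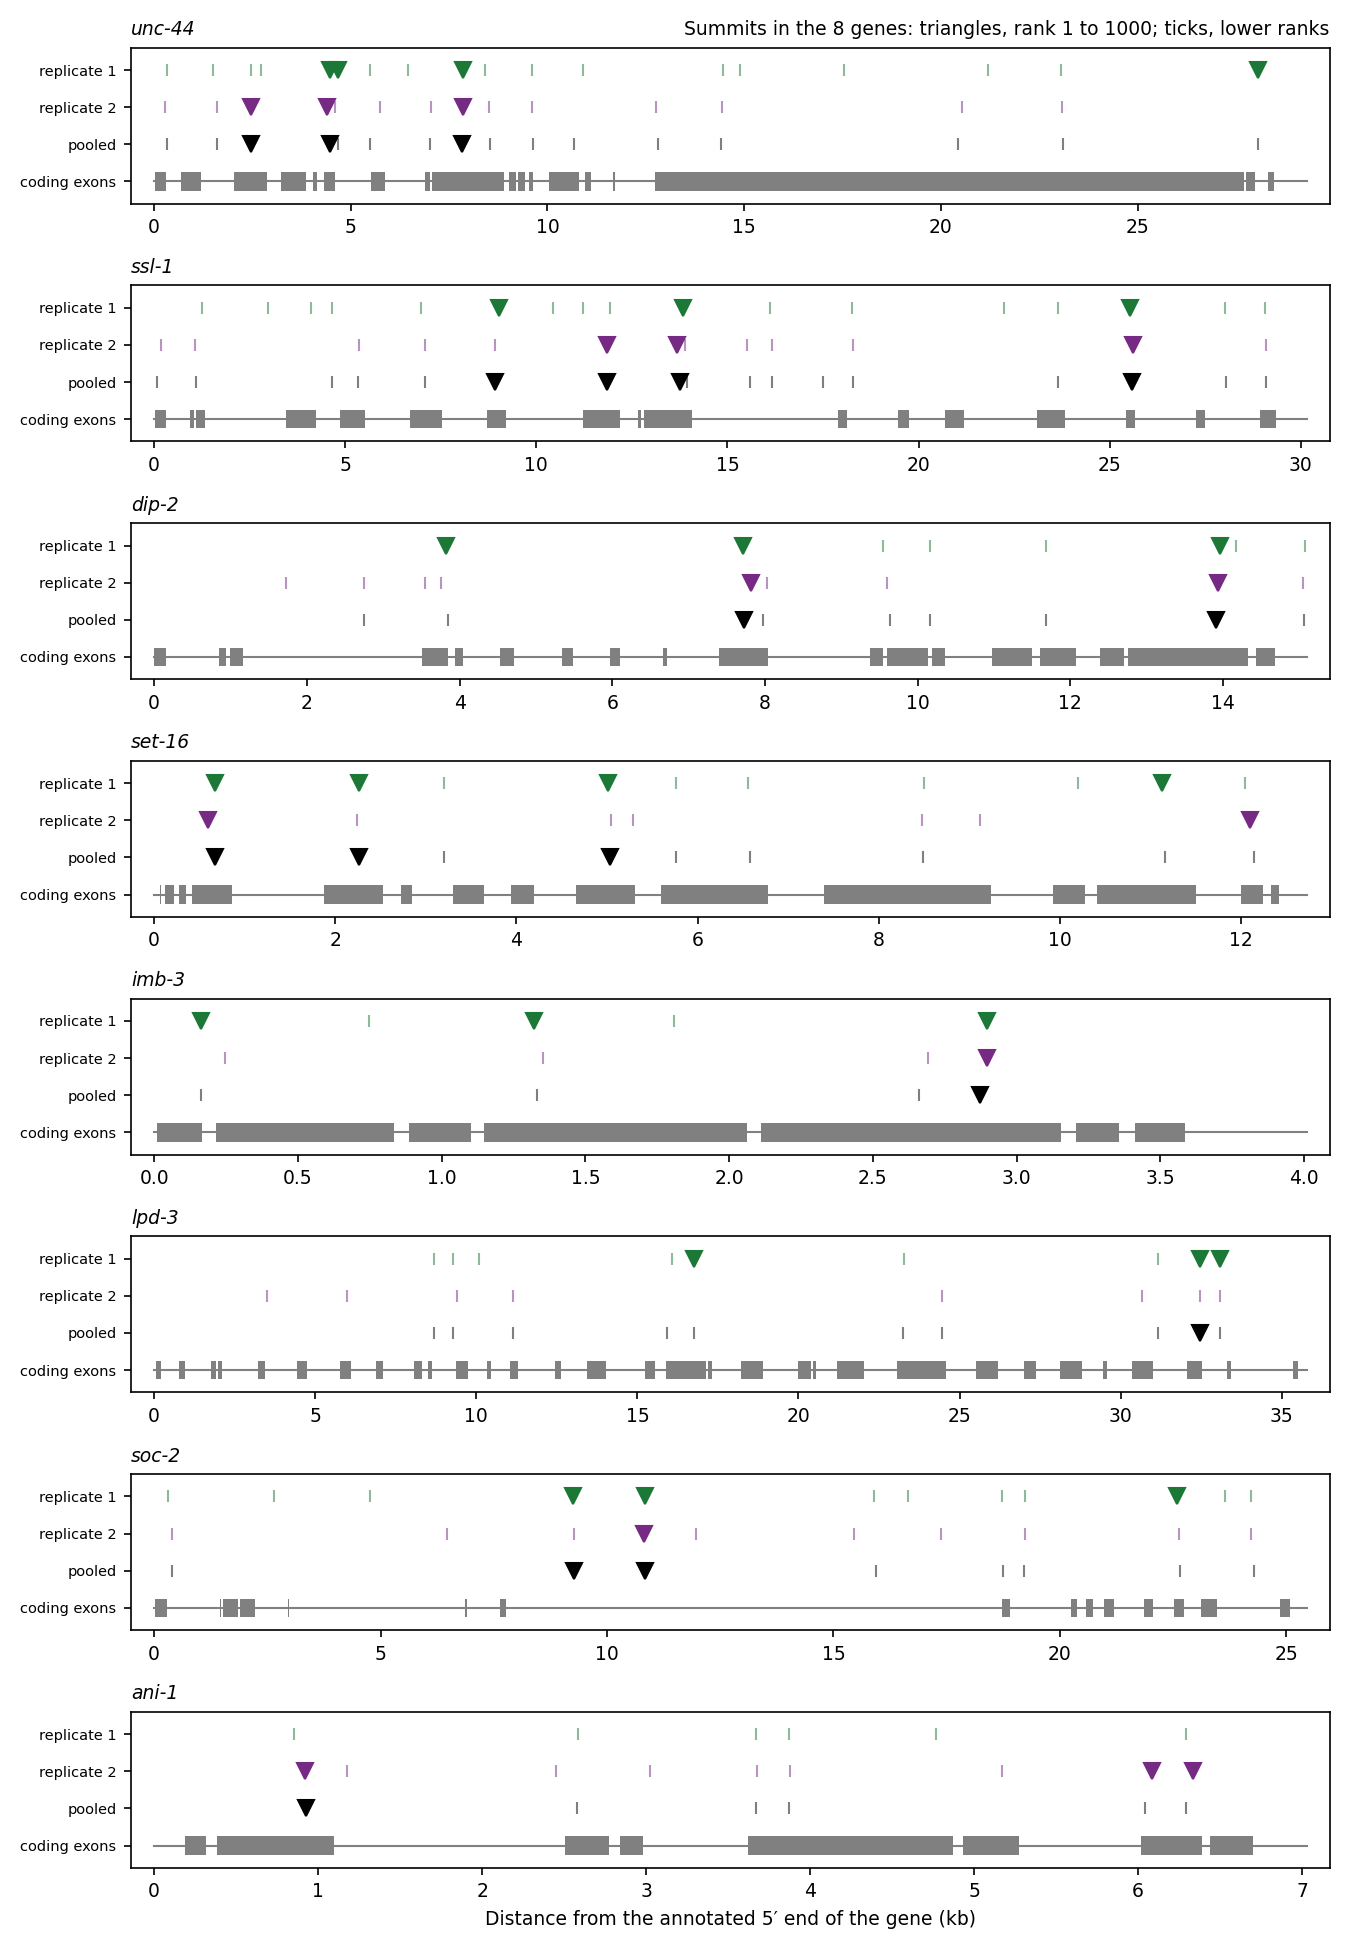
Position of every summit in the 8 genes, in kb from the annotated 5′ end of the gene, with a row each for the replicate 1, replicate 2 and pooled lists and for coding exons of any transcript. Triangles are strong summits (23 in replicate 1, 15 in replicate 2, 17 pooled) and ticks are lower-ranked ones. Most strong summits lay over coding exons, and those outside them were in soc-2 in every list and, in replicate 1, also in unc-44 and lpd-3.

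Between them the 8 genes held 23 strong summits in replicate 1, 15 in replicate 2 and 17 in the pooled list. By comparison, 3.85% of all protein-coding genes held at least 1 strong summit in replicate 1, 3.63% in replicate 2 and 3.72% in the pooled list. At least 3 were held by 0.0401% in replicate 1 (8 genes), 0.0200% in replicate 2 (4 genes) and 0.0350% in the pooled list (7 genes). These shares set the scale of the rule, and nothing further was read from them. The map of summits along the genes shows that the strong summits of a gene were mostly apart and not a single broad cluster. Strong summits of any list within 200 bp of each other were chained into 1 place, so shorter gaps could not occur. Neighbouring strong places lay 247 to 20224 bp apart. The strong unc-44 summits of replicate 1 at 5980021 and 5980220 fell in the same place.

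The count depended on the replicate for most of the genes. Both unc-44 and ssl-1 reached 3 in each of the 3 lists. Of the replicate lists, dip-2, set-16, imb-3, lpd-3 and soc-2 reached at least 3 in replicate 1 and not in replicate 2, and ani-1 the other way round. In the pooled list, set-16 also reached 3. The members nearest the limit in replicate 1 were lpd-3 at rank 843 (signal 47.2), just inside, and ani-1 at rank 1391 (44.1), just outside. In replicate 2 they were dip-2 at rank 977 (49.9) and ssl-1 at rank 1306 (48.1). In the pooled list they were lpd-3 at rank 983 (88.1) and ani-1 at rank 1282 (84.7). The values on either side of the limit were close, so a gene's count can turn on a small difference in signal. Most differences between the replicates were larger than that. Of 19 places strong in 1 replicate, 14 ranked beyond 2000 in the other and 4 had no summit of it within 200 bp.

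Among the genes that act in neurons, unc-44 had the highest summit of the 8 genes in replicate 1 and in the pooled list. It encodes ankyrin, the adaptor that ties membrane proteins to the spectrin cytoskeleton and that axons need for guidance and polarity. The gene (WBGene00006780, chromosome IV, 5975557 to 6004857, plus strand) spans 29.3 kb and is coding over 74.3% of its length. It held 18 summits in replicate 1, 14 in replicate 2 and 16 in the pooled list, of which 4, 3 and 3 in that order were strong, and 3 pooled summits were IDR peaks. At 5980018, in coding exon 6 of the 19 exons of its longest coding transcript, the place ranked 5 in replicate 1 (signal 81.6), 101 in replicate 2 (65.5) and 14 in the pooled list (141). That pooled summit lay 6 bp downstream of the annotated start of a shorter transcript, and it is the first sequence shown above. Replicate 1 had an additional strong summit there, of rank 802, at 5980220 inside the non-coding RNA gene B0350.77, where replicate 2 ranked 19342.

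The other strong places of unc-44 also had unequal ranks in the replicates. Coding exon 10, of 1843 bp, held a place at 5983392 that ranked 86 in replicate 1, 499 in replicate 2 and 59 in the pooled list. Coding exon 3 held one at 5978023 that ranked 2453 in replicate 1, 362 in replicate 2 and 161 in the pooled list. Near the 3′ end, intron 17 held a strong summit in replicate 1 at 6003616, of rank 594, with no replicate 2 summit within 200 bp and a pooled rank of 2309. Of the 4 strong places of unc-44, those at 5980018 and 5983392 were strong in both replicates. The largest coding exon of unc-44, exon 16, is 14975 bp long and belongs to the longest annotated transcript. It held 5 summits in replicate 1, 4 in replicate 2 and 4 in the pooled list, none of them strong, with best ranks of 3228, 13367 and 5914 in that order.

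The second neuronal gene, dip-2, encodes the worm homologue of the disco-interacting protein, which restrains axon regrowth. It lies on chromosome I at 4934259 to 4949353 on the plus strand (WBGene00017885) and spans 15.1 kb, 39.9% of it coding. It held 8 summits in replicate 1, 9 in replicate 2 and 9 in the pooled list, with 3, 2 and 2 strong ones in that order. The place at 4941986 had nearly equal ranks in the replicates, 70 in replicate 1 (signal 63.4) and 77 in replicate 2 (68.2), and ranked 34 in the pooled list. It lay in coding sequence of 2 of the 8 transcripts, 328 bp downstream of a transcript start, and in an intron of the longest transcript. The place at 4948172, in the 1565 bp exon 15 that is coding in 8 of 8 transcripts, ranked 74 in replicate 1, 977 in replicate 2 and 103 in the pooled list. Both were IDR peaks. The remaining strong summit, at 4938084, ranked 571 in replicate 1 but 7822 in replicate 2 and 14076 in the pooled list.

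Among the chromatin genes, ssl-1 encodes an ATPase of the Swi2/Snf2 family, the worm counterpart of p400 in the TIP60 complex. The gene (WBGene00007027, chromosome III, 12714566 to 12744721, plus strand) spans 30.2 kb and is coding over 27.5% of its length. It held 17 summits in replicate 1, 13 in replicate 2 and 17 in the pooled list, and 3, 3 and 4 of these in that order were strong, with 2 IDR peaks. The highest place, at 12728321, ranked 11 in replicate 1 (signal 77.8), 377 in replicate 2 (56.6) and 25 in the pooled list (135). It lay inside the small nucleolar RNA (snoRNA) gene Y111B2A.36, at 12728162 to 12728402, and in sequence that is coding in 1 of the 4 ssl-1 transcripts. In the longest transcript the same base falls in an intron of 4939 bp. That base is thus snoRNA, exon or intron by annotation, and the lists cannot tell which of them the signal belongs to.

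At the second ssl-1 place strong in both replicates the ranks were close. At 12740156, in exon 15, it ranked 289 in replicate 1, 198 in replicate 2 and 149 in the pooled list, and this is the ssl-1 sequence with CAG runs. The other strong places were uneven. At 12726414, in exon 8, the rank was 28 in replicate 2 (signal 75.5) and 12979 in replicate 1 (28.9), with 460 in the pooled list. That rank of 28 was the best of any of the 8 genes in replicate 2. At 12723498, in exon 7, the rank was 216 in replicate 1, 2657 in replicate 2 and 284 in the pooled list.

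The other chromatin gene, set-16, encodes a histone H3 lysine 4 methyltransferase of the MLL3/MLL4 type. It lies on chromosome III at 13643916 to 13656637 on the plus strand (WBGene00011729), spans 12.7 kb and is coding over 58.4% of its length. It held 10 summits in replicate 1, 7 in replicate 2 and 9 in the pooled list, with 4, 2 and 3 strong ones in that order. All its strong summits in the 3 lists lay in coding exons of its single annotated transcript. In exon 4 the place at 13644592 ranked 20 in replicate 1 (signal 72.6), 201 in replicate 2 (60.9) and 52 in the pooled list (124), and it was the IDR peak of the gene. The next places, in exons 5 and 9, had ranks of 103 and 252 in replicate 1, against 5511 and 5042 in replicate 2. Exon 13 held a rank of 250 in replicate 1 with no replicate 2 summit within 200 bp, and exon 14 held a rank of 392 in replicate 2 and 15923 in replicate 1. So 1 of the 5 strong places of set-16 was strong in both replicates.

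The shortest member, imb-3, encodes an importin of the beta family, a carrier of proteins into the nucleus. It lies on chromosome I at 310981 to 314989 on the minus strand (WBGene00002077), spans 4.01 kb and is coding over 81.7% of its length. It held 5 summits in replicate 1, 4 in replicate 2 and 4 in the pooled list, all in coding exons, and 3, 1 and 1 of these in that order were strong. In exon 5 both replicates had a summit at the same base, 312093, of rank 136 in replicate 1 (signal 59.2) and 356 in replicate 2 (56.9). The pooled summit, at 312118, ranked 20 and was an IDR peak. In exon 4 the ranks were 553 in replicate 1 and 4672 in replicate 2. At the 5′ end of the gene they were 324 in replicate 1 and 2254 in replicate 2.

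For soc-2, a leucine-rich repeat scaffold that promotes signalling from Ras to Raf (SHOC2 in mammals), the strong summits were mainly intronic. The gene (WBGene00004929, chromosome IV, 5127041 to 5152491, minus strand) spans 25.5 kb, of which 11.0% is coding, the lowest share of the 8. It held 12 summits in replicate 1, 10 in replicate 2 and 8 in the pooled list, with 3, 1 and 2 strong ones in that order and no IDR peak. In intron 2 of its longest transcript, 12478 bp long, the place at 5141655 ranked 788 in replicate 1 (signal 47.5), 323 in replicate 2 (57.7) and 346 in the pooled list (100). The neighbouring place at 5143218 ranked 767 in replicate 1, 2614 in replicate 2 and 354 in the pooled list. Its exonic summit, at 5129896 in exon 7, ranked 240 in replicate 1 and 17249 in replicate 2. The intronic pair had GC contents of 24.9% and 23.4% within 100 bp of the summit, below those of the strong pooled summits of the other 7 genes.

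Neither lpd-3 nor ani-1 had a place that was strong in both replicates. The longest member, lpd-3, encodes a large bridge-like lipid transfer protein. It lies on chromosome I at 3564963 to 3600735 on the minus strand (WBGene00003060) and spans 35.8 kb, 33.7% of it coding. It held 9 summits in replicate 1, 8 in replicate 2 and 10 in the pooled list, with 3, 0 and 1 strong ones in that order. In exon 29 the place at 3568288 ranked 540 in replicate 1 (signal 49.8), 8231 in replicate 2 (34.7) and 983 in the pooled list (88.1). A second place, at 3567661 in the nested non-coding RNA gene Y47G6A.35, ranked 623 in replicate 1 and 12358 in replicate 2. The third, in exon 17, ranked 843 in replicate 1, had no replicate 2 summit within 200 bp and ranked 13829 in the pooled list.

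In ani-1 the imbalance ran the other way. It encodes anillin, which organises the contractile ring of dividing cells. The gene (WBGene00013038, chromosome III, 12446348 to 12453375, minus strand) spans 7.03 kb and is coding over 49.5% of its length. It held 6 summits in replicate 1, 9 in replicate 2 and 6 in the pooled list, with 0, 3 and 1 strong ones in that order. In exon 2 the place at 12452451 ranked 1391 in replicate 1 (signal 44.1), 569 in replicate 2 (53.5) and 463 in the pooled list (96.8). In exon 7, 247 bp apart, were places of rank 887 in replicate 2 with 13519 in replicate 1, and of rank 544 in replicate 2 with no replicate 1 summit within 200 bp.

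Counted as places, with strong summits of any list chained when within 200 bp of each other, the 8 genes held 28. Of these, 9 were strong in both replicates, 13 in replicate 1 and not replicate 2, and 6 in replicate 2 and not replicate 1. The 9 comprised 2 each in unc-44, ssl-1 and dip-2 and 1 each in set-16, imb-3 and soc-2. Of the 19 places strong in a single replicate, 14 ranked beyond 2000 in the other one and 4 had no summit of it within 200 bp. The remaining place was the ani-1 one in exon 2, at rank 1391. The plot of replicate ranks shows how far the strong places lay from equal ranks.

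**Figure D2:**
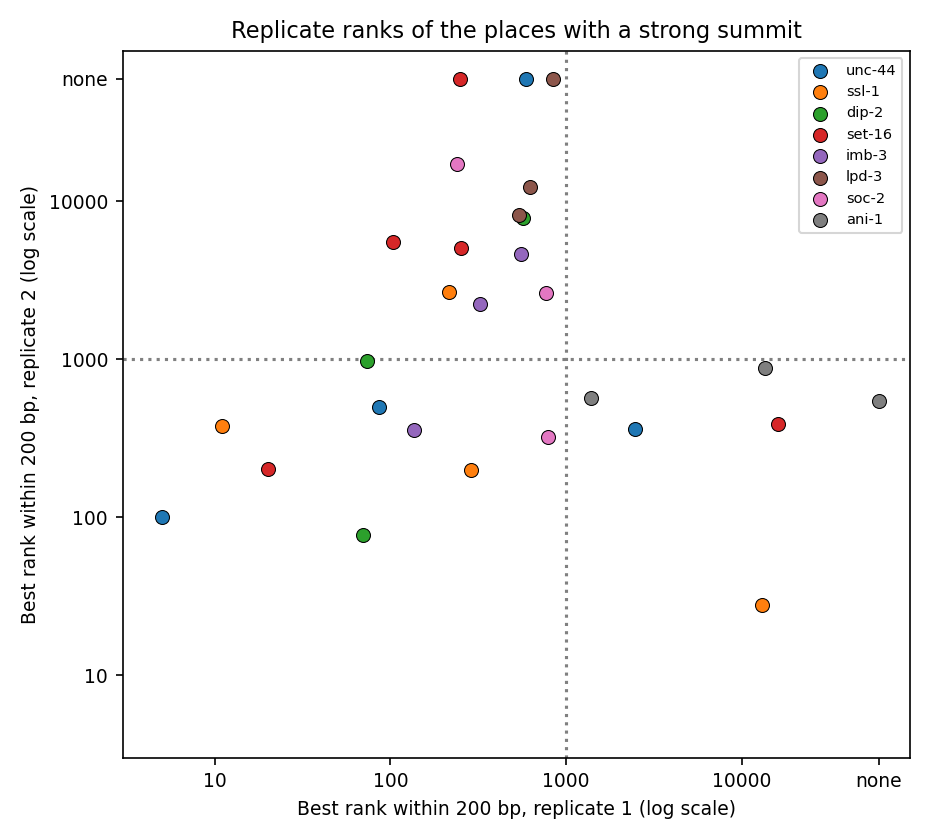
Best rank within 200 bp in replicate 1 (horizontal, log scale) against replicate 2 (vertical, log scale) for the 28 places with a strong summit, coloured by gene. Dotted lines mark rank 1000, and "none" means that no summit of that list lay within 200 bp. The 9 places in the lower left part are strong in both replicates, and no lpd-3 or ani-1 place is among them.

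How often a strong summit had a partner in the other replicate is given as a description, since the choice of genes influenced these counts. Of the 23 strong replicate 1 summits in the 8 genes, 20 (87.0%) had a replicate 2 summit within 200 bp, and 9 (39.1%, exact 95% interval 19.7 to 61.5%) had a strong one. In other protein-coding genes 608 of 788 (77.2%) had a replicate 2 summit and 147 (18.7%) a strong one. The interval counts each summit as independent, but the 23 came from genes picked for holding several strong summits. No difference in partner counts is called from it. Starting from replicate 2, 14 of 15 in the 8 genes (93.3%) had a replicate 1 summit and 9 (60.0%) a strong one. The other protein-coding genes gave 79.6% and 20.2% from that side. Ranks are given beside these counts. The strong summits of the 8 genes had median ranks of 252 in replicate 1, 362 in replicate 2 and 161 in the pooled list. In other protein-coding genes the median ranks of strong summits were 482, 498 and 496 in that order. The genes were chosen by rank, so nothing is read from this difference. The part of rank in the partner counts was not tested.

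Long genes can hold more summits by size alone, so each gene was set against protein-coding genes within 20% of its length. The 8 members were left out of these like-length genes. Over all ranks of the pooled list, the 8 genes held 0.280 to 0.998 summits per kb, with a median of 0.580. Across the pooled list the genome held 0.299 summits per kb. For 6 of the 8, the density stood at percentile 93.5 or above among the genes of like length. These were ani-1 (0.854 per kb, percentile 98.2), set-16 (0.707, 97.9), imb-3 (0.998, 97.5), unc-44 (0.546, 94.0), dip-2 (0.596, 94.0) and ssl-1 (0.564, 93.5). In the single replicates these 6 stood at percentiles of 81.7 to 99.8. Medians of the like-length genes were lower, for example 0.306 per kb for ani-1 and 0.342 for unc-44.

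The other 2 genes stood below the middle of their length class in the pooled list. The density of soc-2 was 0.314 per kb at percentile 46.4, and that of lpd-3 was 0.280 per kb at percentile 32.7, below the like-length median of 0.327. In the single replicates lpd-3 stood at percentiles 26.5 (replicate 1) and 22.4 (replicate 2), whereas soc-2 stood at 82.4 (replicate 1) and 74.4 (replicate 2). Strong summits are part of all summits, so these percentiles are not independent of the rule.

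**Figure D3:**
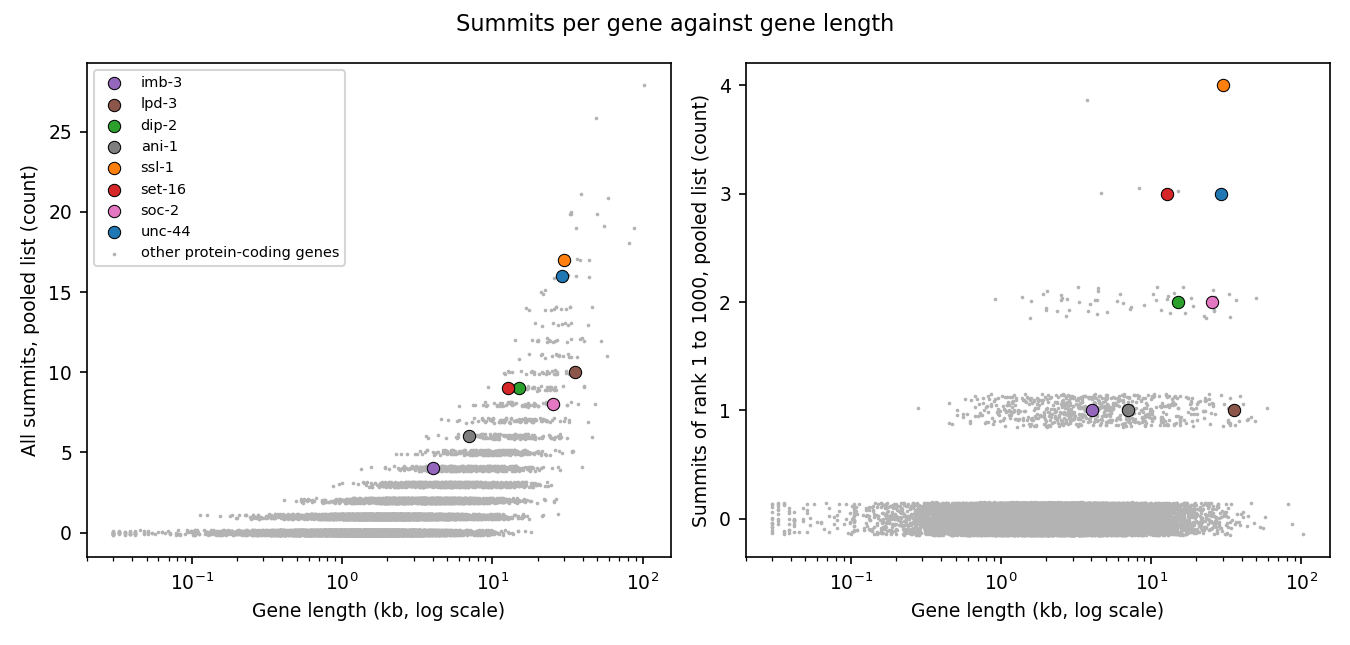
Summits per gene in the pooled list against gene length (kb, log scale) for the 8 genes (coloured) and other protein-coding genes (grey, moved slightly up or down so that points do not cover each other). The left panel counts all summits and the right panel strong ones. Counts of all summits climb with length, with ssl-1 (17) and unc-44 (16) high for their size and lpd-3 (10) and soc-2 (8) not.

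Across all protein-coding genes, the share with at least 1 strong pooled summit climbed with length. It was 1.69% among genes up to 2000 bp, 6.54% between 4000 and 8000 bp, 18.6% between 16000 and 32000 bp and 43.8% above that. Strong summits per 10 kb showed no such climb, at 0.151 in the shortest class and 0.122 in the longest. The 8 genes had 0.280 to 2.49 strong pooled summits per 10 kb, with lpd-3 lowest and imb-3 highest. They were selected on strong summits, so nothing is read from this density against other genes. The imb-3 value rests on 1 strong pooled summit, and 121 of 2478 non-member genes of like length held at least as many. The lengths of the 8 genes ran from 4009 to 35773 bp, with a median of 20273 bp against 2027 bp over all protein-coding genes.

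The genes of like length with most strong pooled summits are given beside the members. All 8 members were left out of these sets, so ssl-1 and unc-44, similar in length, are not counted beside each other. unc-44 held 3, ssl-1 4 and soc-2 2. Among non-member genes of their length the highest count was 2, held by 6 genes in each case. Of those, daf-16, the FOXO transcription factor gene, had the best rank. dip-2 held 2 and set-16 3, and ints-8, an Integrator complex gene, held 3 in the pooled list but 1 in each replicate. imb-3, lpd-3 and ani-1 held 1 each. Their neighbours were alr-1 with 4, aakg-1, an AMP-activated kinase subunit gene and 1 of 3 genes with 2, and prp-8, a spliceosome gene, with 3. Besides these, F53F10.2 held 3 strong pooled summits and 1 in each replicate. So imb-3, lpd-3 and ani-1 were below these neighbours in the pooled list although they reached 3 in a replicate list.

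Most strong summits of the 8 genes lay in coding exons. In the pooled list these were 15 of 17 (88.2%), in 7 genes, against 488 of 775 (63.0%) for strong summits of other protein-coding genes. In replicate 1 they were 18 of 23 (78.3%) against 535 of 788 (67.9%), and in replicate 2 they were 14 of 15 (93.3%) against 426 of 731 (58.3%). Counting only the longest coding transcript of each gene, the pooled shares were 76.5% and 61.8%. Fisher's exact test, two-sided, gave p = 0.0396 in the pooled list, 0.368 in replicate 1, 0.00616 in replicate 2 and 0.313 with the longest transcript. The test counts each summit as independent, but the 17 came from 8 genes picked for holding several, so no difference in coding share is called from it.

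The coding share of the members' length is given beside these counts. The summed length of the 8 genes was 40.8% coding, against 39.3% for all protein-coding genes. Of their 62 lower-ranked pooled summits 36 (58.1%) were in coding exons, against 46.0% of lower-ranked summits in other protein-coding genes. Of the 15 strong pooled coding summits, 7 were coding in every annotated transcript of their gene. The rest, in unc-44, ssl-1 and dip-2, were coding in some transcripts and not others. In the pooled list 2 of the 17 strong summits lay within 500 bp downstream of an annotated transcript start, 1 in unc-44 and 1 in dip-2.

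GC content is given for the same groups of summits. Within 100 bp of the strong pooled summits the 8 genes had a median GC of 47.3%, with a range of 23.4 to 58.7%. Strong summits of other protein-coding genes had a median of 41.3%, and all regions of the pooled list 35.3%. Lower-ranked summits had medians of 42.0% in the 8 genes and 36.8% in the other genes. Coding sequence is richer in GC than introns in this genome. The part of coding sequence in these GC values was not tested, nor was the part of GC in the ranks. The highest value, 58.7%, belonged to the ssl-1 place in the snoRNA gene, and the lowest pair to soc-2.

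**Figure D4:**
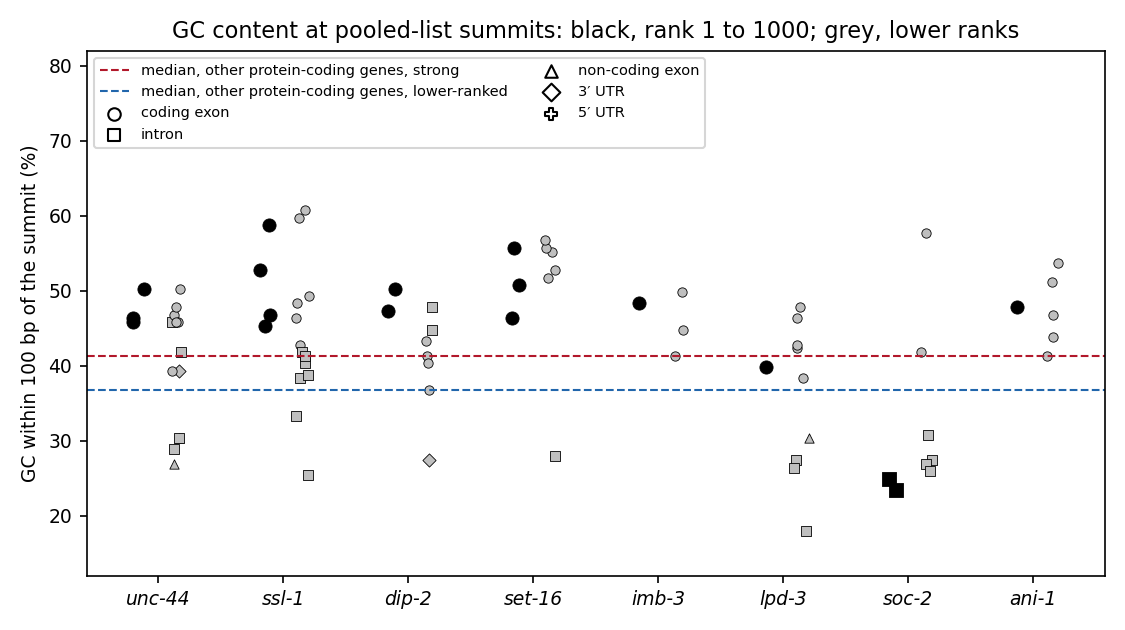
GC content (%) within 100 bp of each pooled-list summit of the 8 genes, by gene, with strong summits in black and lower-ranked ones in grey and the marker shape giving the annotation. Dashed lines are medians of strong (41.3%) and lower-ranked (36.8%) summits in other protein-coding genes. All strong summits outside soc-2 except the one in lpd-3 lie above both lines, and the soc-2 pair lies below both.

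The homeodomain core and repeated sequence were looked for in the whole regions. TAATTA occurred in 2 of the 17 strong pooled regions (11.8%), both in soc-2, against 12.3% of strong regions in other protein-coding genes and 17.3% of all pooled regions. In replicate 1 it was in 5 of 23 (21.7%), 2 in soc-2, 2 in unc-44 and 1 in lpd-3, against 11.3% in other protein-coding genes. In replicate 2 it was in 2 of 15 (13.3%), 1 in soc-2 and 1 in ani-1, against 15.2%. The order of the shares thus differed between the lists. Words of 36 bases that occur more than once in the genome were in 0 of the 17 against 9.29% of strong regions in other protein-coding genes. A run of 3 CAG triplets on either strand, looked for after the sequences were seen, was in 2 of the 17 (11.8%, set-16 and ssl-1). It was in 11 of 775 strong regions of other protein-coding genes (1.42%) and 255 of all 30000 (0.850%). The set-16 and ssl-1 regions are among the sequences shown above, from which the run was picked, so nothing is read from these shares. They also make no allowance for coding sequence.

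Non-coding genes nested in the members were concentrated in a few of them. soc-2 held 52 genes for piRNAs, the small RNAs of the germline that silence foreign transcripts, which is 2.04 per kb. Of these, 8 had a pooled summit of any rank within 200 bp and 4 a strong one, the nearest being 21ur-7898 and 21ur-9366 by the intronic pair. unc-44 held 11 non-coding RNA genes and 20 piRNA genes. Of these, 2 and 10 in that order had a pooled summit of any rank within 200 bp, and 1 and 3 a strong one. How often any other place in these genes lies that near a piRNA gene was not computed. ssl-1 held 2 snoRNA genes and lpd-3 held 1 non-coding RNA gene. No non-coding gene was nested in dip-2, set-16, imb-3 or ani-1. Strong summits occurred in members with and without nested genes.

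Strong summits also occurred in other genes of the members' pathways. These lists were written with earlier results of the data known, and they are described by counts. They stand beside the 3.85% (replicate 1), 3.63% (replicate 2) and 3.72% (pooled) of all protein-coding genes given above, without allowance for gene length. Of the 9 other ankyrin and spectrin cytoskeleton genes, 4 had a strong summit in replicate 1, 2 in replicate 2 and 2 in the pooled list. Among them sma-1, a heavy spectrin, ranked 567 in replicate 1, 3303 in replicate 2 and 933 in the pooled list, and ptl-1, the worm tau homologue, ranked 921, 3383 and 337 in that order. The beta spectrin unc-70 ranked 3118 in replicate 1, 640 in replicate 2 and 1481 in the pooled list. unc-33, a CRMP homologue, ranked 409 in replicate 1, 554 in replicate 2 and 1410 in the pooled list, and spc-1, alpha spectrin, was strong in replicate 1 alone, at rank 840.

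Both chromatin members had a partner that was strong in every list. ash-2, a subunit of the complexes in which set-16 acts, ranked 229 in replicate 1, 165 in replicate 2 and 110 in the pooled list. trr-1, the TRRAP homologue of the TIP60 complex, ranked 177 in replicate 1, 385 in replicate 2 and 63 in the pooled list. Each of these held 1 IDR peak. Of the 8 other COMPASS genes, 1 had a strong summit in replicate 1, 2 in replicate 2 (with cfp-1 at rank 458) and 1 in the pooled list. Of the 14 other remodelling genes, 2 had one in replicate 1 (with epc-1 at rank 882), 1 in replicate 2 and 1 in the pooled list.

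In the remaining pathways, cyk-4 and zen-4 were the genes with a strong summit in both replicates. Of 16 other Ras and MAP kinase genes, 2 had one in replicate 1, 1 in replicate 2 and 2 in the pooled list. The Raf gene lin-45 ranked 8 in replicate 2 but 1468 in replicate 1, and sos-1, a Ras exchange factor, ranked 135 in replicate 1 and 1721 in replicate 2. mek-2, the MAP kinase kinase, ranked 161 in replicate 1 and 2715 in replicate 2. Of 13 other cytokinesis genes, 3 had a strong summit in replicate 1, 2 in replicate 2 and 0 in the pooled list, and cyk-4 (ranks 158 and 759) and zen-4 (592 and 751) were strong in both replicates. let-502 was strong in replicate 1 alone, at rank 892. Of 11 other importins and exportins 1 had a strong summit in each list, a different gene each time: xpo-3 in replicate 1 (rank 895), xpo-2 in replicate 2 (218) and ran-3 in the pooled list (703). Of 9 other lipid genes, atg-2 had one, in replicate 1 at rank 741.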

How the data were processed

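ALR-1-GFP ChIP-seq regions from 1 group of 2 biological replicates were used. According to the deposited text files, a replicate list came from the alignments of that replicate with a control, the pooled list from both replicates, and the IDR list from these 3. The deposited signal value is the authors' own, relative to the control. It ranked regions inside 1 list and was not compared between lists. Coordinates are on ce11, as the labels state. The sources used here do not give the aligner, the caller or the IDR threshold. Read depth is unknown, and intervals cover the counting of regions only.

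Regions have 1 width per list (344, 384 and 364 bp for replicate 1, replicate 2 and pooled). The lowest listed signals were 21.8, 23.3 and 42.2 in that order, so a place with no listed summit can still have signal. Summits were assigned to Ensembl release 115 annotation, with coding sequence of any transcript taken first, and exon numbers follow the longest coding transcript. The pooled list is no further replicate.

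The members, the pathway lists and the alternatives were chosen with earlier results of these data known. Named genes are the 8 members with every strong summit, non-coding genes inside them, other protein-coding genes with 3 or more strong summits in a list, the like-length gene with most strong pooled summits (ties broken by best pooled rank), and pathway genes with a strong summit. The 1 test was Fisher's exact test, with a Woolf 95% interval and a threshold of 0.05. Intervals for shares are exact (Clopper-Pearson). The assignment of summits was tested on simulated data. Python 3.11.15, numpy 2.4.6, scipy 1.17.1 and matplotlib 3.10.9 were used.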

Additional observations from a re-analysis of the deposited data

How the results depend on the processing

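The strong summits summed over the 8 genes were 17 in the pooled list. They ranged from 15 to 23 with one replicate left out, and were 14 with rank 1 to 500 and 24 with rank 1 to 2000. By gene, rank 1 to 500 left 1 in set-16 (3 before) and 0 in lpd-3 (1). Rank 1 to 2000 gave 5 each in unc-44 (3) and ssl-1 (4), 3 in soc-2 (2) and 2 each in imb-3, lpd-3 and ani-1 (1 each). Assigning regions by any overlap, extending genes by 500 bp on the 5′ side or merging summits under 500 bp apart left the sum at 17. Merging was run in the pooled list only, where no strong summits of a member lay that close. In replicate 2 the ani-1 summits of rank 887 and 544 lay 247 bp apart, so its count of 3 depends on keeping them separate. The unc-44 summits of replicate 1 at 5980021 and 5980220 also lay under 500 bp apart. The median percentile of summits per kb was 94.0, and between 88.5 and 96.8 under the 4 alternatives. All 17 strong pooled summits had a summit of both replicates within 100, 200 and 500 bp. The pooled list is made from both, and in other protein-coding genes 98.6% (replicate 1) and 99.2% (replicate 2) had one within 200 bp, so this sets the members apart in no way. In summits per kb, soc-2 changed sides of the middle of its length class, and the other members kept theirs. Its percentile was 46.4 in the pooled list, 82.4 with replicate 2 left out and 74.4 with replicate 1 left out. None of the results taken over the 8 genes together reversed. The odds ratio for coding exons, 4.41, ranged from 1.70 to 10.0 with one replicate left out. It did not pass the threshold in replicate 1 alone (1.70, Fisher's exact p = 0.368) or with rank 1 to 500 (3.30, exact p = 0.152). With the longest coding transcript only it did not pass either (2.01, exact p = 0.313). It passed in replicate 2 alone (10.0, exact p = 0.00616) and with rank 1 to 2000 (3.22, exact p = 0.0326). Against other genes at least as long as imb-3, an alternative chosen after seeing the data, it was 5.33 (exact p = 0.0204). The cause of these differences was not tested, and no difference is called from this ratio. No paired analysis was possible because there is 1 group. The lists hold no read counts, so depth limits cannot be given for a single place.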
